A study of Mus musculus with 2 samples.

Results

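The genes described here are the components of the MAP kinase cascades: Ras GTPases, the 3 tiers of kinases, the kinases that MAP kinases activate, and the Sprouty and Spred inhibitors, with phosphatases left out. They were chosen by name, and every probe set that the array's annotation pairs with 1 of the 37 genes was taken. Probe sets were found for 25 of the 37 genes, out of 8220 genes in all, and these 25 genes had 38 of the array's 12654 probe sets. The other 12 genes (Hras, Mapk3, Mapk11, Map2k7, Map3k14, Mapkapk3, Rps6ka1, Rps6ka4, Rps6ka5, Spry1, Spry2 and Spred1) were not analysed here. The tier of inhibitors therefore has no value, and neither does the only classical ERK among the listed genes.

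RNA came from peritoneal macrophages of Pac1-/- mice, which lack the phosphatase PAC1 encoded by Dusp2, and of age-matched Pac1+/+ littermates. Mice of both genotypes had received 2 ml of 3% thioglycollate, a sterile irritant that draws macrophages into the peritoneum, 4 days before lavage, and the cells of both genotypes were purified by adherence for 2 hours and exposed to 100 ng/ml of lipopolysaccharide (LPS) for 6 hours. Each genotype was represented by 1 Affymetrix array. The mouse strain and age, the number of mice per array and the way Pac1 was disrupted are not stated in the labels.

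A MAP kinase cascade passes a signal through 3 kinases in series: a MAP3K phosphorylates a MAP2K, and the MAP2K phosphorylates a MAP kinase on a threonine and a tyrosine of its activation loop. In macrophages, LPS acts through Toll-like receptor 4 on the ERK, p38 and JNK cascades, which control the transcription, stability and translation of cytokine mRNAs. PAC1 is a nuclear dual-specificity phosphatase that removes those phosphates from MAP kinases. The cascades run on phosphorylation, which was not measured, so the values describe the supply of transcripts and not the activity of the kinases.

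The 2 arrays had equal 2% trimmed means, and a signal counted as measured above a floor of 36.4, set at the median over all signals of the pair of arrays. Signals are MAS5 intensities in arbitrary units, so each probe set is set against itself on the other array and not against another gene's. Per the labels, 92 to 95% of cells were Mac-1 positive. All 9 macrophage markers examined, Itgam (Mac-1), Adgre1 and Csf1r among them, were above the floor on both arrays. So were 3 of 6 neutrophil and 5 of 8 mesothelial and stromal markers. B cell markers were above it for 4 of 4 genes in the knockout and 3 of 4 in the wild type. For eosinophils and mast cells it was 3 of 6 and 2 of 6. Of these, 2 B cell, 1 macrophage and 1 stromal marker were 1.5-fold or more lower in the knockout. Higher were 1 B cell marker and 2 of eosinophils and mast cells. By log2 ratio (knockout over wild type), 7 of the 9 macrophage markers were above 0 and 2 below, with a median of 0.24. The part of cells other than macrophages in the ratios was not tested. Dusp2 itself had a signal of 76.8 on the knockout array, against 333.0 on the wild-type array (log2 ratio −2.12), which is the direction the labels give, although the knockout signal stayed above the floor and where its probes lie relative to the disrupted part is not known. With 1 array per genotype there was no replicate check and no test of the genotypes, and sizes are given without p-values. In a bulk preparation, fewer cells of a type and less RNA per cell cannot be told apart.

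After 6 hours of LPS, the brightest probe sets of the MAP kinase cascade genes measured on both arrays differed by less than 1.5-fold. The exception was Map2k4, 1.62-fold higher in the knockout than in the wild type. Of the 25 genes, 17 were above the floor on both arrays, 2 on 1 array (Mapk9 and Mapk7), and 6 on neither. Among the 19 above it on at least 1 array, 8 had a log2 ratio (knockout over wild type) above 0 and 11 below 0. With the probe sets of a gene averaged, Mknk2 and Mapkapk2 traded sides and the tally was again 8 and 11. With signals below the floor raised to it, Map2k4 was the only gene 1.5-fold or more apart, 1 of 19, beside 12.1% of all 5119 genes above the floor. At 2-fold it was 0 of 19, beside 2.31% of all genes. Counts this small do not set the members apart from all genes. The members' median log2 ratio was −0.07 and their mean 0.04, beside a median of 0.02 over all genes above the floor. Without Map2k4 the mean of the other 18 was 0.00 and the largest difference by brightest probe set was 1.42-fold. Of the 17 genes measured on both arrays, all but Map2k4 and Mknk2 were at most 1.24-fold apart by that probe set. Some dimmer probe sets lay further apart. That of Mknk2 was at least 1.74-fold lower in the knockout, and those of Mapkapk2 and Map2k3 were 1.46-fold and 1.42-fold higher.

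**Figure D1:**
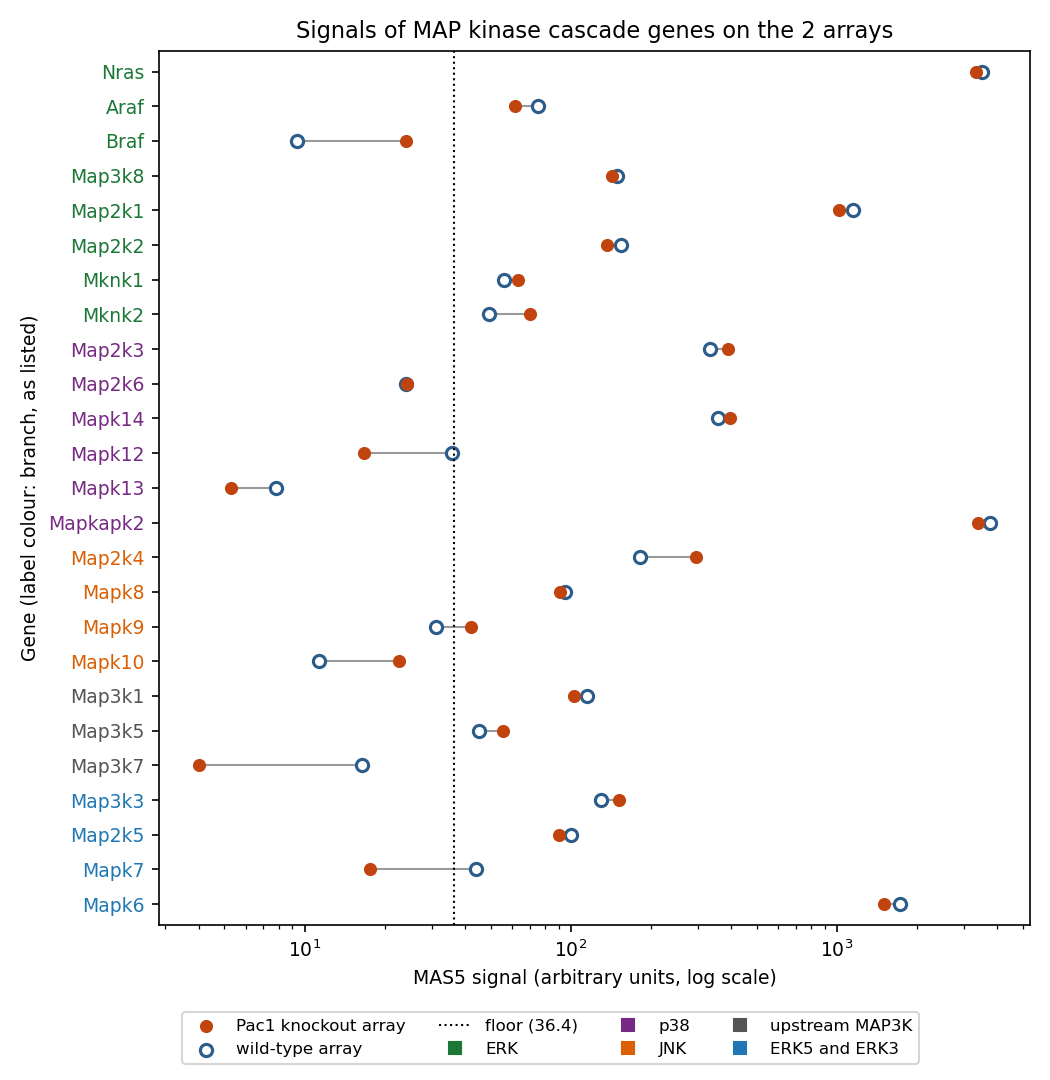
Signals of the brightest probe set of each of the 25 genes on the Pac1 knockout array (filled) and the wild-type array (open), in arbitrary units on a log axis, with the floor of 36.4 as a dotted line and genes ordered by branch. Pairs above the floor nearly coincide except for Map2k4 (294.7 against 182.1) and the dimmer Mknk2 (70.0 against 49.3), and the other wide gaps lie across or below the floor.

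In the ERK branch, 5 of the 7 genes above the floor had ratios below 0 and 2 above, or 6 below and 1 above with probe sets averaged, since Mknk2 then turned. The Ras GTPase gene Nras, whose product recruits Raf kinases to the membrane, had 3337 on the knockout array, against 3498 on the wild-type array (log2 ratio −0.07), from its brighter probe set. Araf, a Raf kinase gene, had 61.7 on the knockout array, against 75.3 on the wild-type array (−0.29), which was the lowest ratio among members measured on both arrays. Braf was below the floor on both (24.0 in the knockout, against 9.40 in the wild type), so it has no ratio. Map3k8 encodes Tpl2, the MAP3K through which LPS activates ERK in macrophages. Its signal was 142.4 on the knockout array, against 149.2 on the wild-type array (−0.07).

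The genes of the ERK-activating MAP2Ks had nearly the same ratio. Map2k1, which encodes MEK1, had 1019 on the knockout array, against 1152 on the wild-type array (log2 ratio −0.18, 88.4% of the wild-type signal). Map2k2, which encodes MEK2, had 137.1 on the knockout array, against 154.9 on the wild-type array (−0.18, 88.5%). The ratios of this pair differed by less than 0.02 under each of the 10 processing settings (from −0.02 to 0.01, Map2k1 minus Map2k2). Of these settings, only quantile normalization and loess could change the difference between Map2k1 and Map2k2.

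Further down the branch, Mknk1 and Mknk2 encode kinases that MAP kinases such as ERK activate, and that phosphorylate the translation factor eIF4E. Mknk1 had 63.4 on the knockout array, against 55.9 on the wild-type array (log2 ratio 0.18). For Mknk2 the probe sets pointed in opposite directions. The brighter had 70.0 on the knockout array, against 49.3 on the wild-type array (0.51), and the other had 21.2 in the knockout, below the floor, against 63.2 in the wild type, at least 1.74-fold lower. No direction is therefore given for Mknk2. Counted by probe set, 2 of the 25 member probe sets above the floor (that of Map2k4 and this dimmer one of Mknk2) were 1.5-fold or more apart, against 12.4% of all probe sets with 1 gene.

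In the p38 branch, 2 of the 3 genes above the floor had ratios above 0, or 3 of 3 with probe sets averaged, since Mapkapk2 then turned. Map2k3, which encodes the p38-activating kinase MKK3, was higher in the knockout on both of its probe sets above the floor. One had 388.3 on the knockout array, against 331.8 on the wild-type array (log2 ratio 0.23), and the other had 380.9 on the knockout array, against 268.9 on the wild-type array (0.50). The first carries a suffix that marks possible cross-hybridisation, and a further Map2k3 probe set did not reach the floor (18.8 in the knockout, 15.9 in the wild type). Mapk14, the gene of p38 alpha, the main p38 of macrophages, had 395.2 on the knockout array, against 355.5 on the wild-type array (0.15), from its only probe set, which also carries such a suffix.

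Mapkapk2 encodes MK2, a p38-activated kinase that stabilises cytokine mRNAs such as that of Tnf. Its brighter probe set had 3372 on the knockout array, against 3758 on the wild-type array (log2 ratio −0.16), and its dimmer one had 80.1 on the knockout array, against 54.9 on the wild-type array (0.54). These differ by 0.70, so the direction rests on the choice of probe set. The other p38 branch genes were below the floor on both arrays: Map2k6 (MKK6) at 24.2 in the knockout, against 24.1 in the wild type, Mapk12 (p38 gamma, known best in muscle) at 16.7 in the knockout, against 35.7 in the wild type, and Mapk13 (p38 delta) at 5.30 in the knockout, against 7.80 in the wild type.

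The JNK branch held the gene with the highest ratio. Map2k4 encodes MKK4, which phosphorylates JNK and can also phosphorylate p38, and had 294.7 on the knockout array, against 182.1 on the wild-type array (log2 ratio 0.69, 1.62-fold higher). It rests on a single probe set. Among the 1584 genes whose brighter signal lay between 100 and 300, 6.69% were higher in the knockout by 1.5-fold or more, so ratios of this size were not rare at its brightness. With arrays scaled to the same median, its ratio was 0.58, just under 1.5-fold.

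Of the JNK genes themselves, only Mapk8 was measured on both arrays. Mapk8, the gene of JNK1, had 90.9 on the knockout array, against 95.3 on the wild-type array (log2 ratio −0.07), and its second probe set did not reach the floor on either array. Mapk9 (JNK2) had 42.2 on the knockout array and 31.1, below the floor, on the wild-type array, at least 1.16-fold higher. Mapk10 (JNK3, known chiefly from the nervous system) was below the floor on both, with 22.7 in the knockout, against 11.3 in the wild type. The Map2k4 ratio exceeded that of Mapk8 by 0.76, and by 0.76 to 0.79 over the 9 settings that gave both values. Of these settings, only quantile normalization and loess could change the difference.

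**Figure D2:**
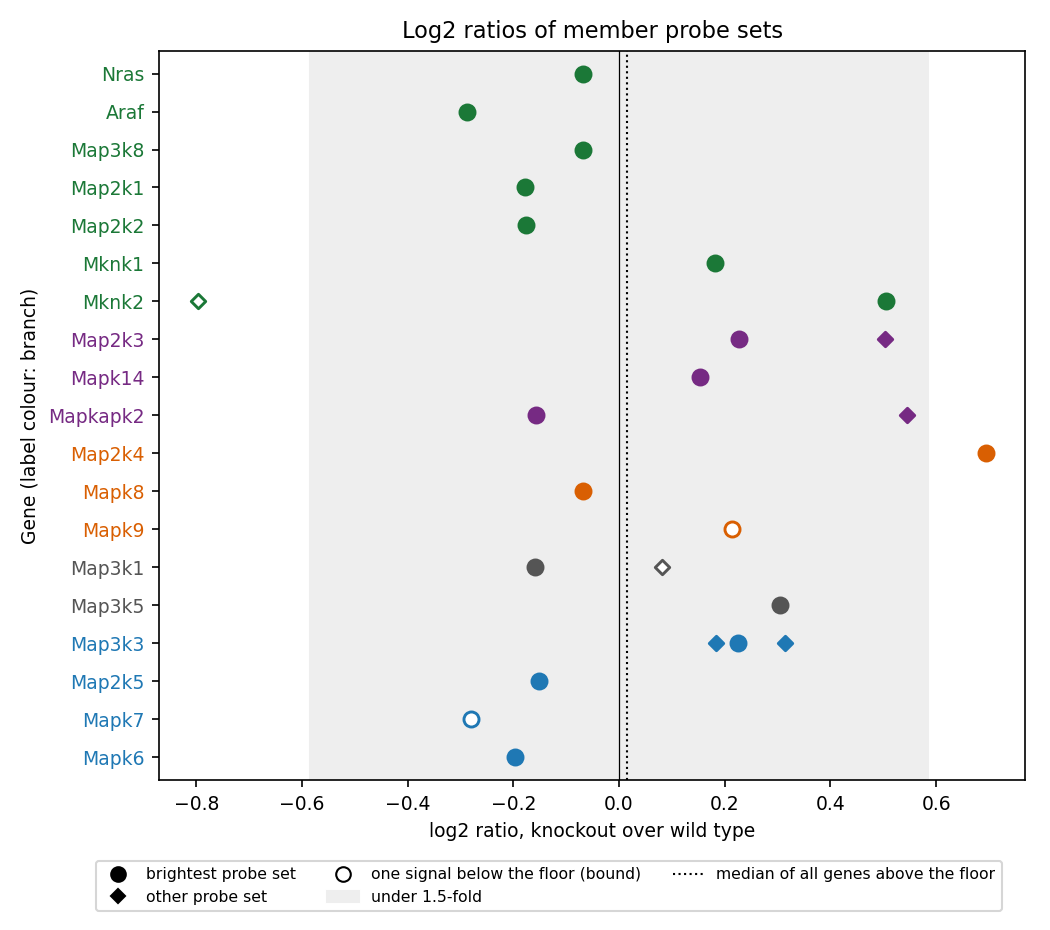
Log2 ratios, knockout over wild type, of every probe set of the 19 genes with at least 1 signal above the floor, with larger circles for the brightest probe set of a gene, diamonds for its others and open symbols where 1 signal was below the floor. Map2k4 (0.69) is the only brightest probe set outside the shaded range under 1.5-fold, and the probe sets of Mknk2, Mapkapk2 and Map3k1 fall on both sides of 0.

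Differences between the MAP2K genes stand apart from the scaling of the arrays, because both ratios of a pair shift nearly together. Map2k4 exceeded Map2k1 by 0.87 on the log2 scale (0.87 to 0.88 over 10 settings) and Map2k2 by 0.87 (0.85 to 0.88). For Map2k4 against either gene, only quantile normalization and loess could change the difference. Map2k3 exceeded Map2k1 by 0.40 (0.40 to 0.68), with the higher value from its probe set without a suffix. These pairs were chosen after their values were seen and carry no test. The promoters of the 4 genes are shown because they stand on either side of this split, with the JNK and p38 kinases first. Each line gives the 250 bases before the annotated start site, from RefSeq (build GRCm38.p6), in the direction of the gene, and capitals mark GC boxes (GGGCGG on either strand).
Map2k4 (minus strand, chr11:65788360-65788609): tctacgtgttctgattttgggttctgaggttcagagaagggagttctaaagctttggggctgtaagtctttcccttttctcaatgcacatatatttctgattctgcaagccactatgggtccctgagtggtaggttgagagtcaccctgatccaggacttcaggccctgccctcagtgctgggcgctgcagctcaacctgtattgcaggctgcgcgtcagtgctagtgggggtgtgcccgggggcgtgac
Map2k3 (plus strand, chr11:60931804-60932053): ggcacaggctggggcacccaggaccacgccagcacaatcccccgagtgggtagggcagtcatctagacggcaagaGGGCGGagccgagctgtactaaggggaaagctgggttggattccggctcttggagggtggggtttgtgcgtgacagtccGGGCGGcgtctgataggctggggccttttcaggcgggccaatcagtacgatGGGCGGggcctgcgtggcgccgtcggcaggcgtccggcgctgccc
Map2k1 (minus strand, chr9:64253606-64253855): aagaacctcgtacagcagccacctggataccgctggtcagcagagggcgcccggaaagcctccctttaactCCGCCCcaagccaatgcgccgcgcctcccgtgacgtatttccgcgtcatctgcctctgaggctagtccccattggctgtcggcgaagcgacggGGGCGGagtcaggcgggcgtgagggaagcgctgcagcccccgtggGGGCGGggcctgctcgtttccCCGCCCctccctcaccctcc
Map2k2 (plus strand, chr10:81105665-81105914): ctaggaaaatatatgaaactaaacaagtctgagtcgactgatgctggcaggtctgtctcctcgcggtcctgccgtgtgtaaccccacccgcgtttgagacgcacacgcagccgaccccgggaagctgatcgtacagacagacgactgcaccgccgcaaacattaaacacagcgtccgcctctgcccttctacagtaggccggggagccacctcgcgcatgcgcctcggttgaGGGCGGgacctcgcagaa

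For Map2k4 this is the more upstream of its 2 annotated start sites. GC boxes occurred 3 times in the Map2k3 window, 4 times in that of Map2k1, once in that of Map2k2 and not in that of Map2k4. Promoters were found for 18 of the 19 genes above the floor, and 13 of these 18 held a GC box, against 35.4% of the 27025 genes of the promoter table. This share and those below cover all genes of that table, whatever their signal, whereas the 18 were above the floor. Shares over genes above the floor were not computed, so no enrichment among the members can be read from these counts. Motifs of factors that LPS activates were searched in the same windows. AP-1 (TGANTCA), CRE (TGACGTCA) and an ETS site in the single form CCGGAAG were found in 0 of 18, against 7.82%, 1.77% and 7.83% of all genes. Other forms of the ETS site were not searched. The NF-kB consensus was found in 1 (Mapk7) of 18, against 8.23%, and the CArG box of SRF in 1 (Mknk2), against 1.62%. Both strands were searched, and no match overlapped another in the windows printed. A match is only a string of letters, and its absence says nothing of a factor.

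Among the MAP3Ks that feed several branches, ratios stayed small. Map3k1 (MEKK1, an activator of the JNK cascade) had 102.8 on the knockout array, against 114.8 on the wild-type array (log2 ratio −0.16), from a probe set with a suffix for possible cross-hybridisation. Another suffixed probe set had 38.5 in the knockout, against 35.5, below the floor, in the wild type, at least 1.06-fold higher. The direction for Map3k1 thus rests on the choice of probe set, and its probe set without a suffix was below the floor on both arrays. Map3k5 (ASK1, a MAP3K of oxidative stress) had 55.7 on the knockout array, against 45.1 on the wild-type array (0.30). Map3k7 encodes TAK1, which links TRAF6 to both NF-kB and the MAP kinases. Both of its probe sets were below the floor on both arrays, the brighter at 4.00 in the knockout, against 16.4 in the wild type, so no ratio was formed.

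The ERK5 cascade and the atypical kinase ERK3 gave 1 ratio above 0 and 3 below. Map3k3 (MEKK3) acts on the ERK5 activator MEK5. Of Map2k3, Map3k3 and Mapkapk2, the members with several probe sets measured on both arrays, it had the narrowest range of ratios (0.13). All 3 probe sets of Map3k3 were higher in the knockout, at 151.1 against 129.3 in the wild type (log2 ratio 0.22), 123.6 in the knockout against 108.9 in the wild type (0.18), and 84.0 in the knockout against 67.6 in the wild type (0.31). The first carries a suffix for possible cross-hybridisation and comes from the same source sequence as the last. Map2k5, which encodes MEK5, had 89.9 on the knockout array, against 99.8 on the wild-type array (−0.15). Mapk7, which encodes ERK5, had 17.6 in the knockout, below the floor, against 44.2 in the wild type, at least 1.21-fold lower. Mapk6 (ERK3) had 1501 on the knockout array, against 1722 on the wild-type array (−0.20).

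The branch medians of the log2 ratio were −0.07 for ERK (7 genes), 0.15 for p38 (3 genes) and 0.21 for JNK (3 genes). With 3 genes each, the p38 and JNK medians are those of Mapk14 and of the bound for Mapk9. The p38 median minus the ERK median was 0.22, but 0.07 when the floor was lowered to the 25th percentile and −0.01 with no floor, so no order of these branches is given. The JNK median minus the ERK median was 0.28, and 0.64 in both of those settings, which admit Mapk10. It was 0.82 with a floor at the 75th percentile, where Map2k4 is the only JNK branch gene left. With probe sets averaged, the ERK median was −0.15 and the p38 median 0.19. The error of a branch median is not known from 1 array per genotype. For single ratios, 520 genes had several probe sets that were measured on both arrays, and ratios of probe sets of 1 gene had a pooled SD of 0.33 around the gene's mean. By tier, 3 of 5 MAP2K genes were below 0 (median −0.15), 3 of 5 MAP3K genes (−0.07), 3 of 5 MAP kinase genes (−0.07), and 1 of 3 genes of MAP kinase-activated kinases (0.18), where Mapkapk2 is the one below 0 and, with probe sets averaged, Mknk2 is.

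The members were also read by brightness, each by its brightest probe set. The 6 genes with a signal over 300 (Nras, Map2k1, Map2k3, Mapk14, Mapkapk2 and Mapk6) had log2 ratios from −0.20 to 0.23, at most 1.17-fold apart, where 4.65% of the 1526 genes of that brightness were 1.5-fold or more apart. The 5 between 100 and 300 ran from −0.18 to 0.69, with 1 (Map2k4) 1.5-fold apart, where the share over genes was 13.1%. The 8 under 100 ran from −0.29 to 0.51, with 0 at 1.5-fold, where the share was 16.9%.

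**Figure D3:**
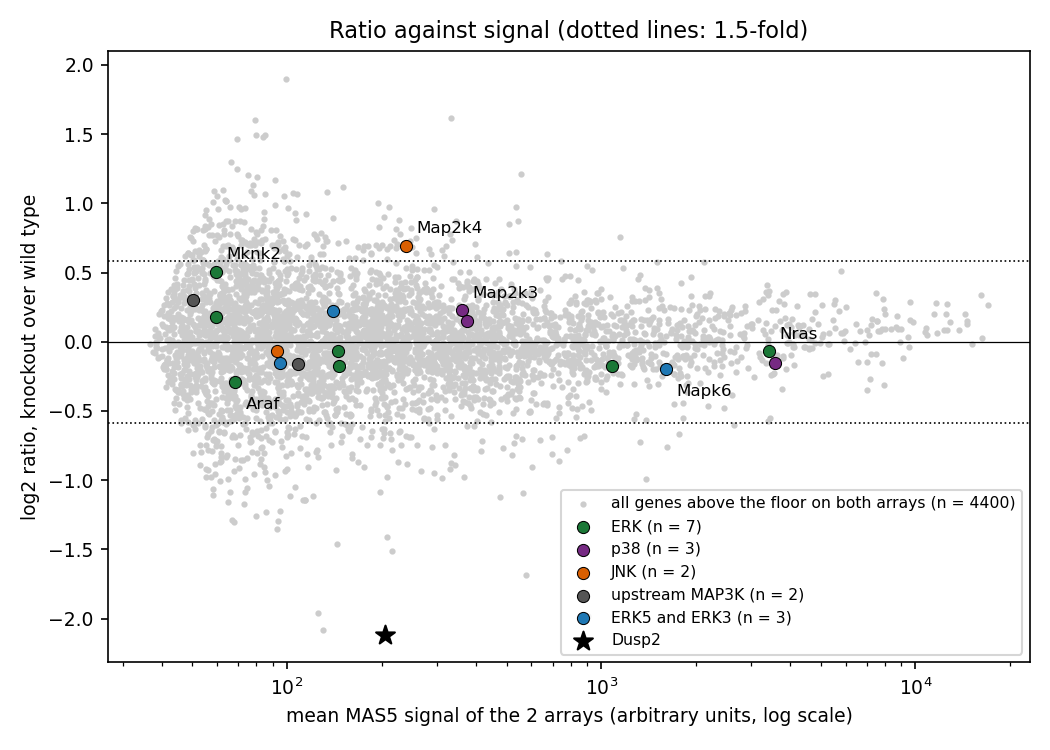
Log2 ratio, knockout over wild type, against the mean signal of the arrays (log axis) for the 4400 genes above the floor on both arrays (grey), the 17 members among them coloured by branch, and Dusp2 (star). The members lie in the body of the cloud, Map2k4 (0.69) just above the 1.5-fold line and Dusp2 (−2.12) at its lower edge.

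Other genes of the same pathways were listed by function, and 33 of the 47 with a probe set were above the floor. Of these, 6 of 33 were 1.5-fold or more apart, 2 higher and 4 lower in the knockout, beside 12.1% of all genes, and scaling to the same median gave 2 higher and 7 lower. Their median log2 ratio was 0.02. Each of the 6 rests on 1 probe set. The adaptor gene Grb2, which couples receptor tyrosine kinases to the Ras activator SOS, had 417.8 on the knockout array, against 243.5 on the wild-type array (1.72-fold higher). Lamtor3, the gene of the scaffold MP1 that holds MEK1 with ERK1, had 165.9 on the knockout array, against 98.4 on the wild-type array (1.69-fold higher).

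The 4 lower genes included a pair with opposed roles on Ras. Rasa1, a GTPase-activating protein that switches Ras off, had 67.9 on the knockout array, against 129.6 on the wild-type array (1.91-fold lower). Rasgrp1, an exchange factor that switches Ras on and is known best in T cells, had 41.6 on the knockout array, against 76.9 on the wild-type array (1.85-fold lower). Markers of T and NK cells were above the floor for 0 of 5 genes in the knockout and 1 of 5 in the wild type (Cd4), with summed signals of 73.6 in the knockout, against 103.6 in the wild type. That gap is Cd4 alone (32.8 in the knockout, against 74.5 in the wild type), and the other 4, all below the floor, summed to 40.8 in the knockout, against 29.1 in the wild type. Their part in the Rasgrp1 value was not tested.

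Ywhaz, a 14-3-3 protein that binds phosphorylated Raf, had 2099 on the knockout array, against 3184 on the wild-type array (1.52-fold lower), while its relatives Ywhab and Ywhae had log2 ratios of 0.25 and 0.26. Gadd45a, a stress-induced activator of the MAP3K MTK1, had 24.8 in the knockout, below the floor, against 119.4 in the wild type, at least 3.28-fold lower. Its family members, given for comparison, were nearly level: Gadd45b had 822.7 in the knockout, against 810.4 in the wild type (0.02), and Gadd45g had 254.2 in the knockout, against 235.3 in the wild type (0.11). Among 5 dual-specificity phosphatase genes above the floor, Dusp2 was lowest, Dusp6 next (110.4 on the knockout array, against 140.8 on the wild-type array, −0.35) and Dusp1 highest, at 2238 on the knockout array against 1621 on the wild-type array (0.46).

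**Figure D4:**
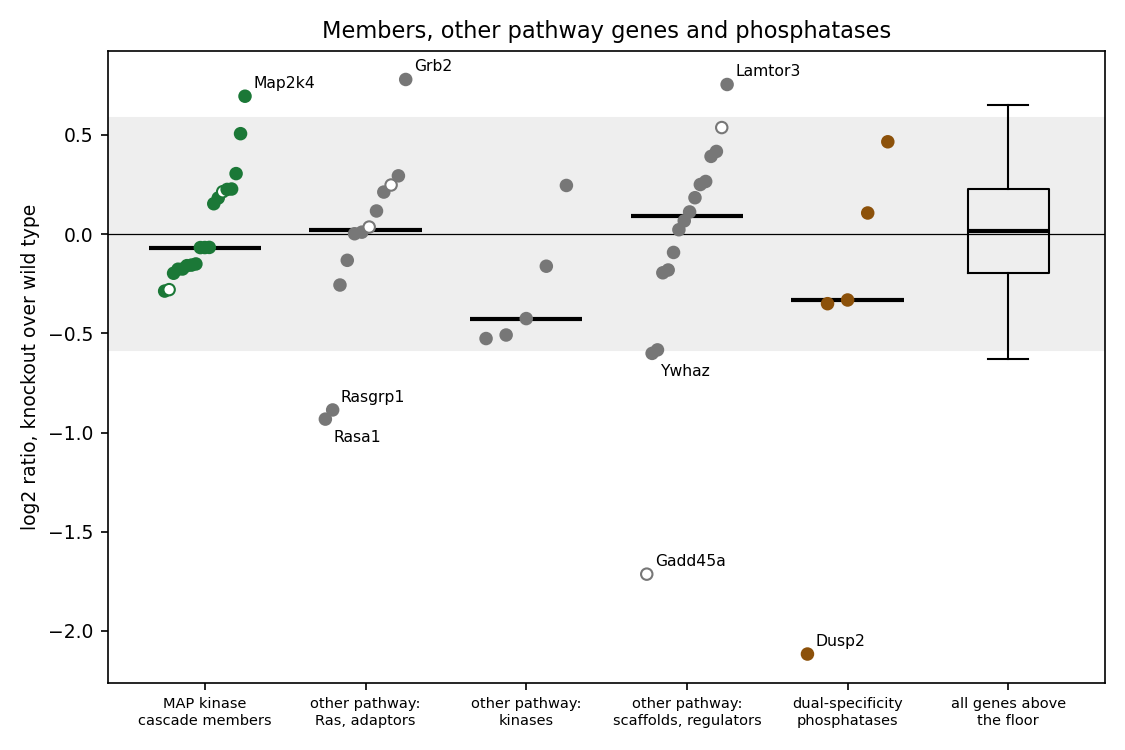
Log2 ratios, knockout over wild type, of the 19 members, of 33 other pathway genes in 3 groups and of 5 dual-specificity phosphatases, with a thick line at each median, open symbols where 1 signal was below the floor, and a box for all 5119 genes (quartiles, whiskers at the 5th and 95th percentiles). Each gene is shown by its brightest probe set. Genes outside the shaded range under 1.5-fold are named, and Map2k4 is the only one among the members.

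The signs of 17 of the 19 members were the same in every setting that gave a value, and those of Mknk2 and Mapkapk2 turned when probe sets were averaged (to −0.15 and 0.19). Scaling to the same median moved the ratios measured on both arrays together, whereas quantile normalization and loess moved some up and others down. Scaling to the same median shifted the median of all genes by −0.11, which left 0 members 1.5-fold apart and split the calls over all genes into 214 higher and 456 lower, in place of 326 higher and 293 lower. Relative to the median of all genes, the members' median was −0.08 in the main scaling and −0.09 in that one. Map2k4 was 1.5-fold or more higher in 9 of 10 settings, but the settings for floor and probe sets could not change its ratio. It has 1 probe set, without a suffix, and both of its signals lie above the highest floor used (129.9). The deposited values could hardly change it either. Of the scalings that could, quantile normalization gave 0.69 and loess 0.70, whereas median scaling gave 0.58, under 1.5-fold.

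**Figure D5:**
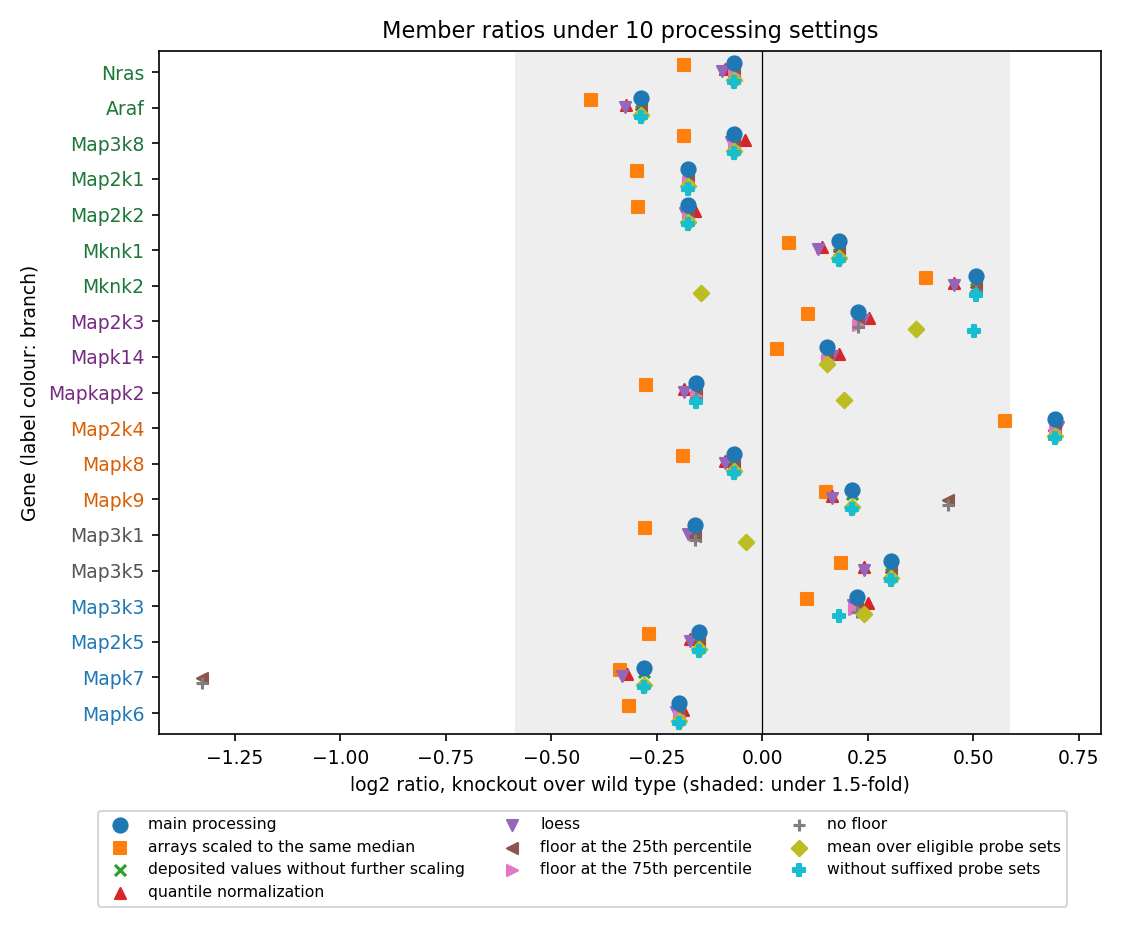
Log2 ratios of the 19 members, knockout over wild type, under the main processing and 9 alternatives, 1 symbol per setting. Most genes keep a narrow range, with ratios scaled to the same median to the left of the others, and Mapk7 moves to −1.33 when the floor is lowered or dropped.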

How the data were processed

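The deposited values are linear intensities, 1 for each probe set on each array, which the authors computed with MAS5 per the submitters' processing notes, with no version or settings stated. Per the labels' protocols, 500 to 1000 ng of total RNA was copied with a poly(T) primer and amplified, which favours 3′ ends of transcripts. The number of arrays limits the precision. Of 12654 probe sets, 66 controls were left out, and of the others 10276 had 1 gene symbol and were used, 363 had several and 1949 were unnamed. Arrays were scaled to equal 2% trimmed means, signals raised to the floor, and log2 ratios taken for the brightest probe set of a gene. Signals below the floor on 1 array give a bound ("at least"). Python 3.11.15, numpy 2.4.6, pandas 2.3.3, scipy 1.17.1 and statsmodels 0.14.6 (loess) were used. The calculation of ratios was run on simulated arrays in which only brighter genes changed, by 2-fold or more. The simulated noise was smaller than the spread between probe sets of a gene. That run therefore says nothing of dim genes or of differences as small as those of most members. Members, lists, branches and the 1.5-fold rule were chosen with earlier results of these data known. Every member was named, and of other genes Dusp2, its highest and lowest relatives and pathway genes 1.5-fold apart. Ywhab, Ywhae, Gadd45b, Gadd45g and the markers named were added after their values were seen. Alternatives covered scaling, floor and choice of probe sets.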

Additional observations from a re-analysis of the deposited data

How the results depend on the processing

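Most results counted as unmoved under the 9 alternatives. A value counted as moved when it changed by over 0.33 (log2), the SD between probe sets of a gene, and a count when it changed by over 1.5 times. The limit of 0.33 is larger than most member ratios and every branch median, so these could turn sign and still count as unmoved. The deposited values could hardly differ from the main ones, since their trimmed means were nearly equal already. The members' median log2 ratio and the medians of the ERK, p38, upstream MAP3K, and ERK5 and ERK3 branches did not move by that rule, though the p38 median was 0.01 with a floor at the 25th percentile and −0.08 with no floor, against 0.15. In both of these settings the upstream MAP3K median was −0.16, against 0.07. Scaling to the same median gave a p38 median of 0.003 and an upstream MAP3K median of −0.05. The p38 median was 0.07 with loess and 0.08 with quantile normalization. The median of ERK5 and ERK3 was 0.01 with a floor at the 75th percentile, against −0.17. Scaling to the same median left 0 members 1.5-fold apart, against 1. A floor at the 25th percentile admitted dim signals and gave 6 members 1.5-fold and 4 members 2-fold apart, 13 other pathway genes, 1854 genes over all and a JNK median of 0.57. With no floor the values were 6 members 1.5-fold and 5 members 2-fold apart, 18 other pathway genes, 2679 genes over all and a JNK median of 0.57. The 5 members added by both were Braf, Map3k7, Mapk7, Mapk10 and Mapk12, each with at least 1 signal below the main floor. A floor at the 75th percentile left 10 members and gave 2 other pathway genes, 125 genes over all, a JNK median of 0.69 from Map2k4 alone and a Dusp2 ratio of −1.36, since it raised the knockout signal. Of 211 values of single genes, 7 moved and 0 changed the sign of a called value. No paired analysis was possible because each genotype had 1 array. Signal over background limits the 6 members below the floor on both arrays and the bounds for Mapk7 and Mapk9, for which no size can be given.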
